A study of Ictidomys tridecemlineatus with 15 samples.

Results

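Phase I and Phase II drug metabolizing enzymes were followed in livers of the 13-lined ground squirrel, Ictidomys tridecemlineatus, by global run-on sequencing (GRO-seq). In this assay nuclei are isolated and their elongating polymerases run on in the presence of a label, which marks nascent RNA instead of the RNA stored in the cell. A unit of the count table was taken as a member when a gene name in it began with Cyp, Ugt, Gst, Sult, Fmo, Aldh or Akr followed by a number or by a letter and a number, and the bile acid P450s Cyp7a1, Cyp8b1, Cyp27a1 and Cyp7b1 were left out. Of 6324 units, 78 were members. They comprised 48 of the 4705 units with a single gene name and 30 of the 1619 units in which the authors had merged overlapping genes, whose reads cannot be divided among the merged genes. The 48 single-gene members were 22 CYP, 7 ALDH, 7 AKR, 3 UGT, 6 GST and 3 SULT units. No FMO gene had a unit of its own. The names were used as the annotation gives them: 22 of the 48 carry the suffix _like or _containing, and only 13 of the names match a symbol or synonym in the RefSeq annotation of the species as they stand. A human-style name such as CYP2C19 therefore names the unit and does not establish a one-to-one counterpart in another species.

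Livers came from 5 states. SA (summer active) animals were in the homeothermic period before hibernation began. The other states belonged to the winter torpor-arousal cycle: IBA (interbout aroused, rewarmed between torpor bouts), Ent (entering torpor), ET (early torpor) and LT (late torpor). All animals were females housed in the laboratory, from a breeding colony, and carried implanted temperature loggers or transmitters. There were 3 libraries each of SA, IBA, Ent and ET and 2 of LT (replicates 1 and 3), each from a different animal. LT replicate 2 was removed by the authors and was not used here.

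Phase I enzymes add or expose a reactive group on a lipophilic compound. They include the cytochrome P450s (CYP), which take electrons from the reductase Por, the flavin monooxygenases (FMO), and the aldehyde dehydrogenases (ALDH) and aldo-keto reductases (AKR), which oxidize or reduce carbonyl groups. Phase II enzymes attach a water-soluble group: glucuronic acid by the UGTs, glutathione by the GSTs, and sulfate by the SULTs. In mammalian liver most of these genes are hepatocyte genes, and several are controlled by the xenobiotic receptors Nr1i2 (PXR), Nr1i3 (CAR) and Ahr together with hepatocyte factors such as Hnf4a.

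Between 3713883 and 8884763 reads per library fell on the units. Values are CPM, read counts scaled by TMM-normalized library size, given for each library or as the mean ± SD of a state. CPM is a share of the counted transcription, so a change in the total activity of the nuclei is not seen in it. Log2 fold changes are given ± SE, and adjusted p-values come from edgeR's quasi-likelihood test across all 6324 units with Benjamini-Hochberg adjustment. Members were called among the 5 states at an adjusted p of 0.001 and between 2 states, or between SA and the mean of the 4 winter states, at 0.05. The ET livers all came from collection season 2, the LT livers from season 1 and the IBA livers from season 3, whereas SA and Ent mixed seasons 1 and 3, so that comparisons with ET cannot be told apart from season. SA replicate 2 stood low for these genes. The 48 members summed to 5587 CPM in it, against 10937 and 10730 in the other SA libraries, and it had the lowest SA value for 37 of the 48 members (77.1%, against 37.6% of all single-gene units).

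As a set, the members were transcribed at higher levels in the warm states than in torpor. Of the 48, 17 (35.4%) were differentially transcribed among the 5 states, beside 26.4% of all 4705 single-gene units. Their summed CPM was 9084 ± 3031 (SD, n = 3) in SA, 8926 ± 614 (n = 3) in IBA and 7547 ± 482 (n = 3) in Ent, and then 4678 ± 224 (n = 3) in ET and 4790 ± 9.39 (n = 2) in LT. Each of the 3 SA, 3 IBA and 3 Ent libraries lay above all 5 torpor libraries. The state with the highest mean was SA for 19 members and IBA for 17, and the lowest was ET for 22 (45.8%) and LT for 15 (31.2%). Over all single-gene units SA was highest for 24.3% and IBA for 24.9%, and ET was lowest for 19.9% and LT for 26.4%. Every SA and IBA library lay above every ET and LT library for 19 members (39.6%, against 20.2% of all single-gene units), and the opposite held for Aldh2 and Aldh9a1 (4.17%, against 20.3%).

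**Figure D1:**
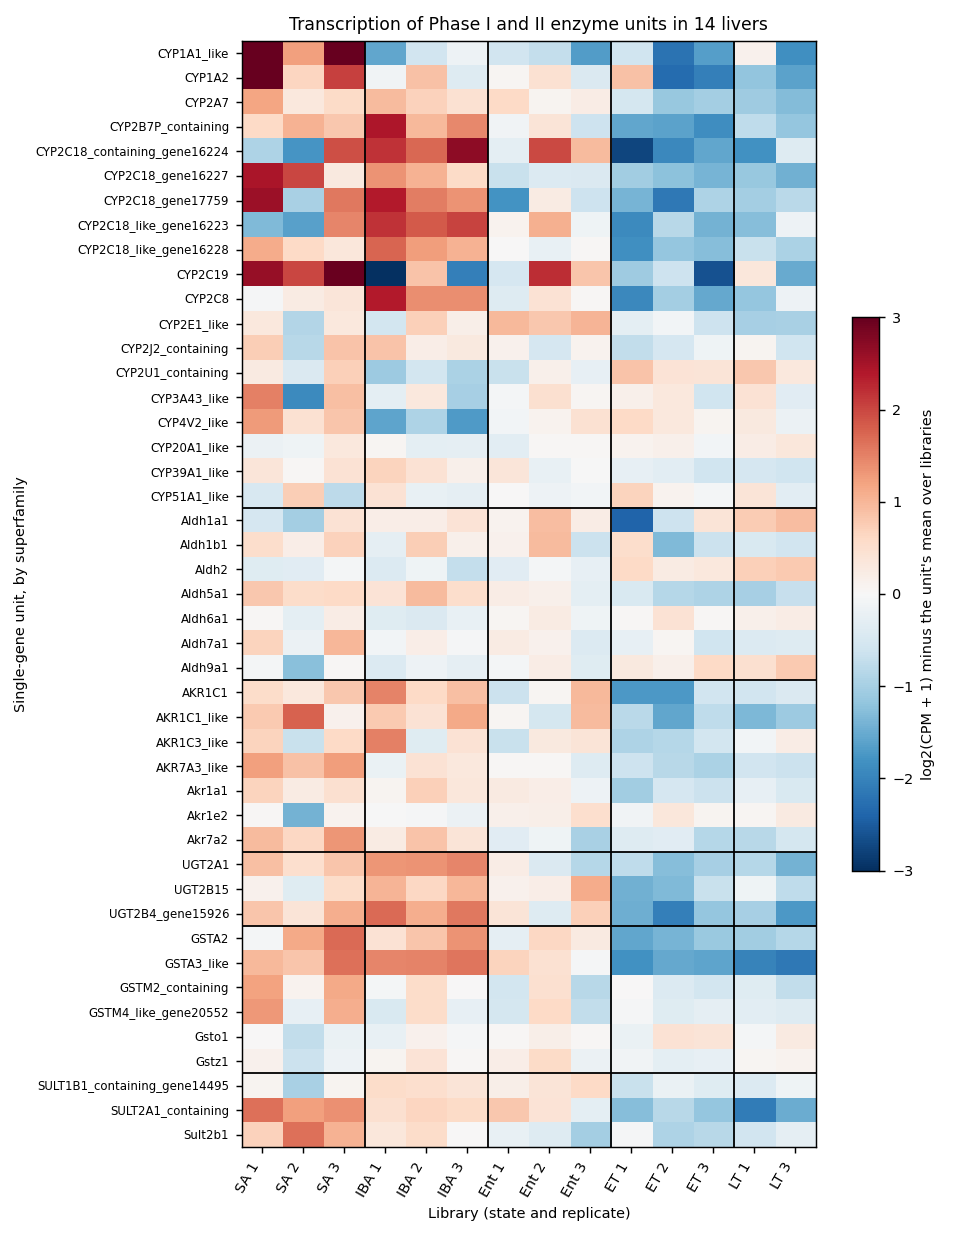
Log2(CPM + 1) of the single-gene members with reported names (rows, grouped by superfamily) in each of the 14 libraries (columns), minus the member's mean over the libraries, with the color scale ending at 3 in either direction. Most rows are red in SA and IBA and blue in ET and LT, and the rows of CYP2U1_containing and CYP4V2_like have their lowest values in IBA.

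From state to state, most of the called members moved in the same direction. Between SA and IBA, 5 members were called, with 1 higher and 4 lower in IBA, beside 2.70% and 2.87% of all single-gene units. Between IBA and Ent 1 rose and 9 fell (8.57% of all units rose and 8.12% fell). Between Ent and ET 1 rose and 19 fell, where 15.4% of all units rose and 13.8% fell. Between ET and LT no member was called in edgeR or in DESeq2, where 0.340% and 2.08% of all single-gene units were called. At an unadjusted p under 0.05 there were 4 members in each, a threshold to which these shares do not apply. Between LT and IBA 25 were higher in IBA and 5 lower, beside 26.6% and 24.1% of all units. Against SA, the mean of the winter states was lower for 25 members and higher for 1, beside 24.3% and 21.0%. Every IBA library was above every LT library for 31 members and below for 9 (40.2% and 34.1% of all units), and every SA library was above every winter library for 4 members and below for 0 (4.23% and 3.12%). The median log2 fold change of the 48 was -0.77 from Ent to ET, 0.84 from LT to IBA and -0.71 from SA to winter, where the medians of all single-gene units were -0.02, 0.09 and -0.01. The comparisons Ent to ET and LT to IBA have no library in common, and all 19 members that fell from Ent to ET were among the 25 that were higher in IBA than in LT (100% of the first list and 76.0% of the second). Over all single-gene units these shares were 86.2% and 44.8%. At an adjusted p of 0.05, 34 members passed the 5-state test (63.3% of all single-gene units). At 0.001, 0 members were called from SA to IBA (0.0213%) and 0 from IBA to Ent (0.0425%), 1 was called from Ent to ET (2.30%), 10 from LT to IBA (17.6%) and 10 from SA to winter (11.6%). Of the 91 calls between states, winter mean included, 52 held in each fit that left out 1 library. Without SA replicate 3, 4 members were called higher and 3 lower in IBA than in SA. Without IBA replicate 1 the SA to IBA calls fell to 1, without SA replicate 1 or IBA replicate 3 to 3, and without LT replicate 1 the LT to IBA calls fell to 17.

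**Figure D2:**
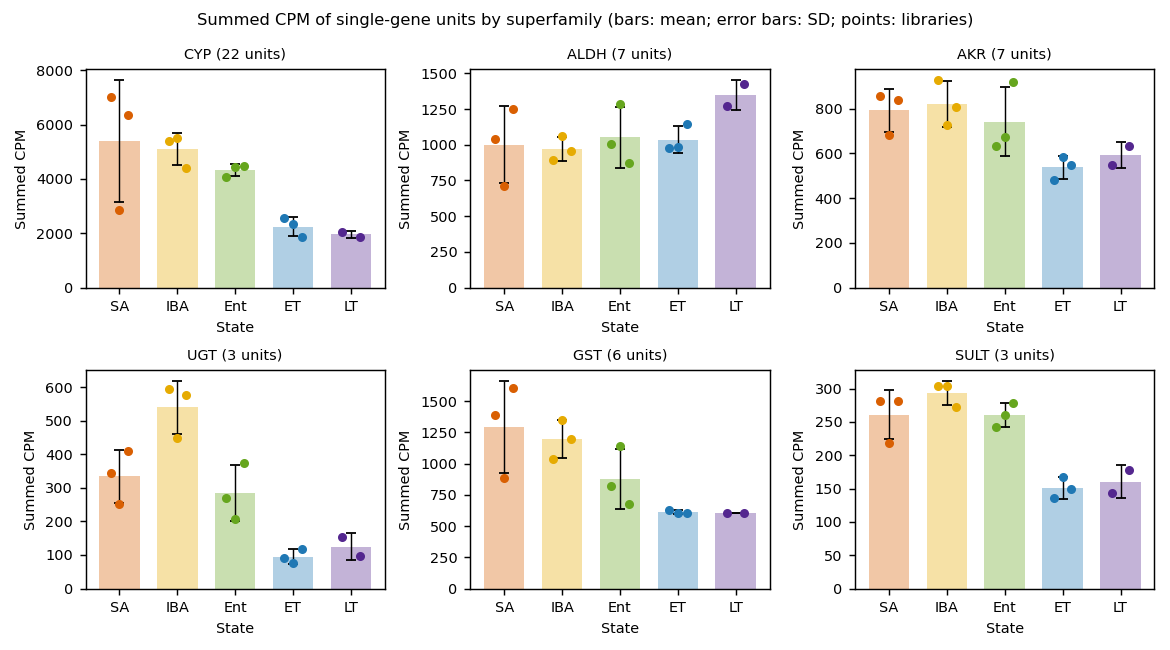
Summed CPM of the single-gene members of each superfamily by state, with bars for the mean, error bars for the SD and a point for each library. CYP, UGT, GST, SULT and AKR sums are lower in ET and LT than in IBA in every library, whereas both LT libraries have a higher ALDH sum than the 3 IBA libraries.

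Season and cell type markers were examined beside these counts. With season as a covariate, which leaves IBA and LT comparable only through SA and Ent, 16 members were higher and 3 lower in IBA than in LT, and 18 of the 30 calls were kept. The 19 of 48 stood beside 35.9% of all single-gene units called in that fit. Within season 1, 24 members were higher in both Ent libraries than in both LT libraries and 5 were lower, beside 35.6% and 33.9% of all units. In that season the single SA library was above all 4 winter libraries for 27 of the 48 members (30.9% of all single-gene units). It was below them for 7 (29.2%). Of the 27, 23 had been called lower in winter, but in a fit that includes these same libraries, so the overlap is partly built in. Within season 3, in which the winter libraries were 3 IBA and 1 Ent, both SA libraries were above all 4 for 6 members and below them for 2 (12.7% and 14.9%). There the SA mean was the higher for 24 of the 48 members, beside 47.4% of all single-gene units. Among the 25 members called lower in winter it was the higher for 17. Those calls came from a fit that holds these same libraries, so the 17 are no separate support for them. Within season 1 the SA value was above the winter mean for 35 of the 48 members (48.7% of all units). Of 12 hepatocyte markers, 7 had a unit of their own, and none was at 0 in a state. Of these 7, 5 were lower in winter than in SA and 5 were higher in IBA than in LT. Their summed CPM ranged from 9213 to 20200 in SA, from 8885 to 13469 in IBA, from 7202 to 8253 in Ent, from 3744 to 6007 in ET and from 4710 to 7016 in LT. Among markers of other cells, the endothelial genes Stab1, Pecam1 and Kdr summed to between 186 and 241 in SA and between 135 and 148 in LT. Stab1 alone went the other way, at 44.1 ± 14.3 CPM in SA and 58.7 ± 2.98 in LT. None of the endothelial genes was called from SA to winter, and Pecam1 and Kdr were called higher in IBA than in LT. The cholangiocyte gene Sox9 was at 32.3 ± 7.80 CPM in SA and 8.60 ± 2.16 in LT, and the macrophage, stellate and lymphoid lists had no single-gene unit. The part of these markers in the results was not tested, and in whole liver fewer cells of a type and less transcription per cell cannot be told apart.

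CYP1 genes encode the P450s of planar aromatic compounds and are the classical targets of the aryl hydrocarbon receptor. They gave the largest difference between SA and winter among the members. CYP1A1_like (Itri5:115833426-115839895, minus strand, HiC_Itri_2 build) was at 155, 9.90 and 155 CPM in SA, at 0.568, 2.09 and 3.19 in IBA, at 2.11, 1.81 and 0.445 in Ent, at 2.06, 0 and 0.479 in ET, and at 4.08 and 0.295 in LT. Every SA library lay above every winter library, although SA replicate 2 was far below the other SA libraries. The counts were from 36 to 1307 in SA and from 0 to 27 in winter, 109 in all over the 11 winter libraries. It fell by 6.07 ± 0.66 on the log2 scale from SA to winter (adjusted p = 4.2e-05), a call that held with each library left out. From SA to IBA it fell by 5.66 ± 1.07 (adjusted p = 0.0095), with an adjusted p of 0.051 and a log2 fold change of -5.31 without IBA replicate 1. CYP1A2 lies 17.3 kb away on the opposite strand (Itri5:115857178-115872073). Its level was 1191, 220 and 587 CPM in SA, 131, 258 and 107 in IBA, 146, 193 and 103 in Ent, 257, 27.7 and 33.2 in ET, and 61.1 and 45.4 in LT. CYP1A2 fell by 2.62 ± 0.54 from SA to winter (adjusted p = 0.0022), but SA replicate 2 overlapped the winter libraries, and the difference between SA and IBA, -2.01 ± 0.78, did not pass the test (adjusted p = 0.15).

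**Figure D3:**
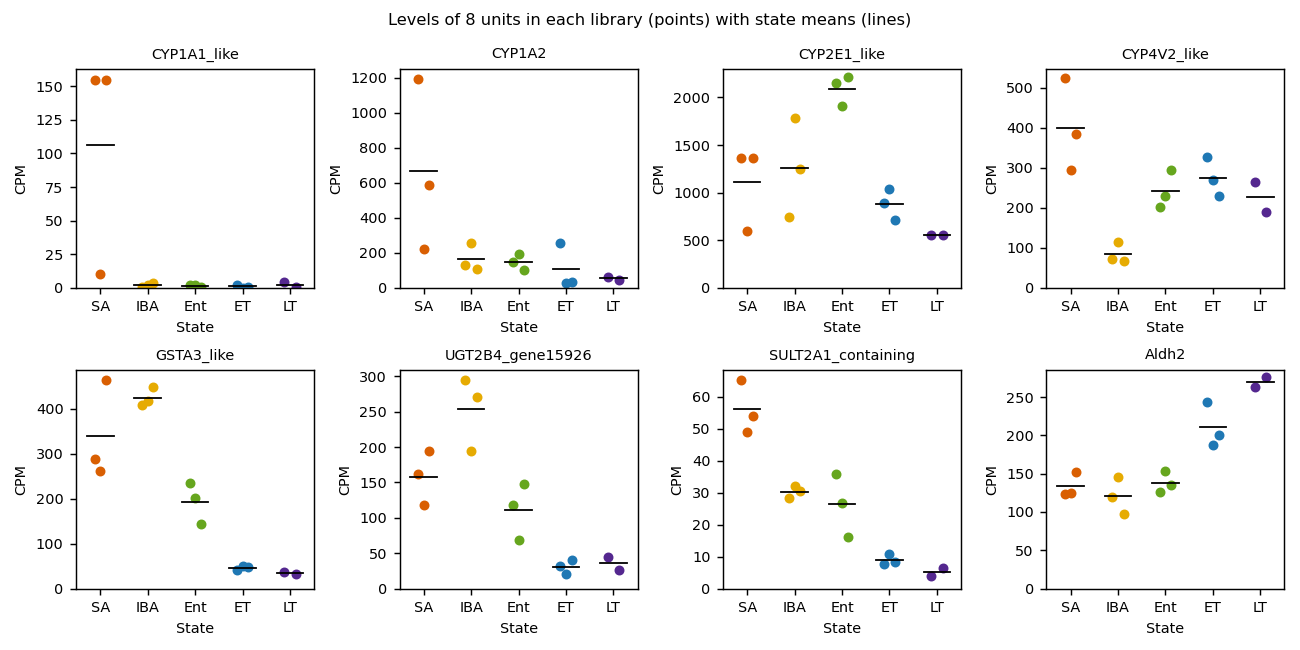
CPM of 8 single-gene members in each library (points) by state, with lines at the state means. CYP1A1_like is above 9 CPM only in SA, CYP2E1_like peaks in Ent, CYP4V2_like is lowest in IBA, GSTA3_like, UGT2B4_gene15926 and SULT2A1_containing are at their lowest in ET and LT, and Aldh2 is at its highest there.

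CYP2E1, which oxidizes ethanol, acetone and other small molecules, was the member with the highest transcription per length. CYP2E1_like (Itri1:5849838-5868976, minus strand) averaged 61.6 CPM per kb over the states and ranked 5th of the 4705 single-gene units. It had its highest mean in Ent, at 2152, 1912 and 2213 CPM, all above the SA values of 1367, 594 and 1364 and the IBA values of 745, 1789 and 1243. In torpor it was at 894, 1036 and 714 CPM in ET and at 551 and 558 in LT. It fell by 1.25 ± 0.33 from Ent to ET (adjusted p = 0.015), not called without ET replicate 3 (-1.12, adjusted p = 0.057). It was higher in IBA than in LT by 1.18 ± 0.38 (adjusted p = 0.021), and that call was lost without IBA replicate 2 (0.84, adjusted p = 0.083) or either LT library, and with season as a covariate (1.36, adjusted p = 0.06). Its difference of 0.73 ± 0.33 between IBA and Ent did not pass the test (adjusted p = 0.14). As a share of the summed CPM of the 22 single-gene CYP units, CYP2E1_like made up 43.2% to 52.9% in Ent and 13.8% to 32.6% in IBA, without overlap. In ET its share was 35.1% to 44.5%, which overlapped that in Ent.

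CYP2A and CYP2B genes form a shared cluster in mammals and include the phenobarbital-inducible CYP2B enzymes, targets of CAR. CYP2A7 (Itri16:14712489-14726318) was at 491, 268 and 322 CPM in SA, 419, 351 and 296 in IBA, 329, 227 and 252 in Ent, 149, 97.6 and 106 in ET, and 103 and 86.6 in LT. All 9 warm-state libraries, entrance included, were above the 5 torpor libraries. It fell by 1.19 ± 0.24 from Ent to ET (adjusted p = 0.0038) and was higher in IBA than in LT by 1.90 ± 0.29 (adjusted p = 2.1e-04). CYP2B7P_containing (Itri16:14935181-14960501) fell in both steps into torpor. It fell by 1.84 ± 0.35 from IBA to Ent (adjusted p = 0.0066) and by 1.76 ± 0.38 from Ent to ET (adjusted p = 0.0052). Its libraries went from 122, 43.5 and 60.3 CPM in IBA through 20.2, 28.7 and 13.8 in Ent to 6.77, 6.48 and 5.27 in ET, with no overlap between the 3 states, and stood at 12.4 and 9.13 in LT. The calls given here for CYP2A7 and CYP2B7P_containing held with each library left out.

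The CYP2C subfamily, which in humans metabolizes many prescribed drugs and arachidonic acid, was the largest group. Its 10 single-gene units and 1 merged unit lay within 866 kb on scaffold Itri1, 3 on the plus and 8 on the minus strand. Only uniquely aligned reads were counted, so that reads shared by near-identical copies are missing from these units, and the copies' levels are uncertain to that extent. The 10 units together summed to 2428, 869 and 2647 CPM in SA, 3162, 2246 and 2094 in IBA, 570, 1262 and 1023 in Ent, 270, 308 and 285 in ET, and 447 and 478 in LT. The CYP2C share of the CYP total was 40.9% to 58.4% in IBA and 10.6% to 15.3% in ET, and the ranges of the sums in IBA and in each later winter state did not overlap. Of the 10, 8 were higher in IBA than in LT and none was lower, beside 26.6% and 24.1% of all single-gene units. The family median was 2.50 on the log2 scale. The calls of CYP2C18_gene16227, CYP2C18_like_gene16228 and CYP2C8 held with each library left out and with season as a covariate. Each other LT to IBA call of the family was lost in at least 1 fit that left out 1 library. With season as a covariate, CYP2C18_containing_gene16224 and CYP2C18_like_gene16223 were among those lost (adjusted p = 0.2 for each). From IBA to Ent 4 fell (8.12% of all single-gene units), and 5 fell from Ent to ET (13.8%).

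Within the cluster the units did not share 1 pattern. CYP2C18_like_gene16228, CYP2C8 and CYP2C18_gene16227 were called among the 5 states. CYP2C18_like_gene16228, at the end of the cluster, was at 496, 352 and 304 CPM in IBA, 149, 126 and 150 in Ent and 40.3, 64.8 and 60.5 in ET. It fell by 1.44 ± 0.24 from IBA to Ent (adjusted p = 0.0038) and by 1.36 ± 0.24 from Ent to ET (adjusted p = 0.0019), both held with each library left out. CYP2C8 was the member called as a riser from SA to IBA, from 18.3, 22.3 and 24.2 to 102, 50.6 and 51.1 CPM, by 1.64 ± 0.37 (adjusted p = 0.021). For CYP2C18_like_gene16223 the difference was 1.79 but did not pass the test (adjusted p = 0.15). The CYP2C8 call was lost without SA replicate 1 (1.54, adjusted p = 0.057) or IBA replicate 1 (1.23, adjusted p = 0.093). CYP2C8 then fell by 1.79 ± 0.36 to Ent (adjusted p = 0.0083) and by 1.67 ± 0.39 to ET (adjusted p = 0.0076), and both of these calls held. CYP2C18_gene16227 instead had its highest mean in SA and fell by 2.44 ± 0.30 from SA to winter (adjusted p = 8.9e-05).

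CYP2C19 had its highest values in SA and low values in IBA. It was at 436, 285 and 550 CPM in SA, 5.40, 127 and 16.0 in IBA, 48.8, 327 and 125 in Ent, 33.1, 45.2 and 10.5 in ET, and 89.2 and 23.9 in LT. It fell by 2.80 ± 0.65 from SA to winter (adjusted p = 0.0047), which held with each library left out, while its IBA libraries were far apart and its difference between LT and IBA was -0.18 ± 1.05 (adjusted p = 0.9). The unit next to it, CYP2C18_like_gene16223, 18.3 kb away on the other strand, was at 711, 569 and 650 CPM in those IBA libraries.

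CYP2C18_containing_gene16224 had the largest fall from Ent to ET among the members, by 3.54 ± 0.98 (adjusted p = 0.017), from 11.9, 60.8 and 29.1 to 1.33, 3.14 and 4.31 CPM. It was also higher in IBA than in LT by 3.34 ± 1.07 (adjusted p = 0.021). CYP2C18_gene17759 fell by 2.34 ± 0.71 from IBA to Ent (adjusted p = 0.04). CYP2C18_containing_gene16224 lost its Ent to ET call without Ent replicate 2 or ET replicate 1, and its LT to IBA call without LT replicate 1 or with season as a covariate (2.54, adjusted p = 0.2). The IBA to Ent call of CYP2C18_gene17759 was lost in 8 of the 14 fits that left out 1 library.

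**Figure D4:**
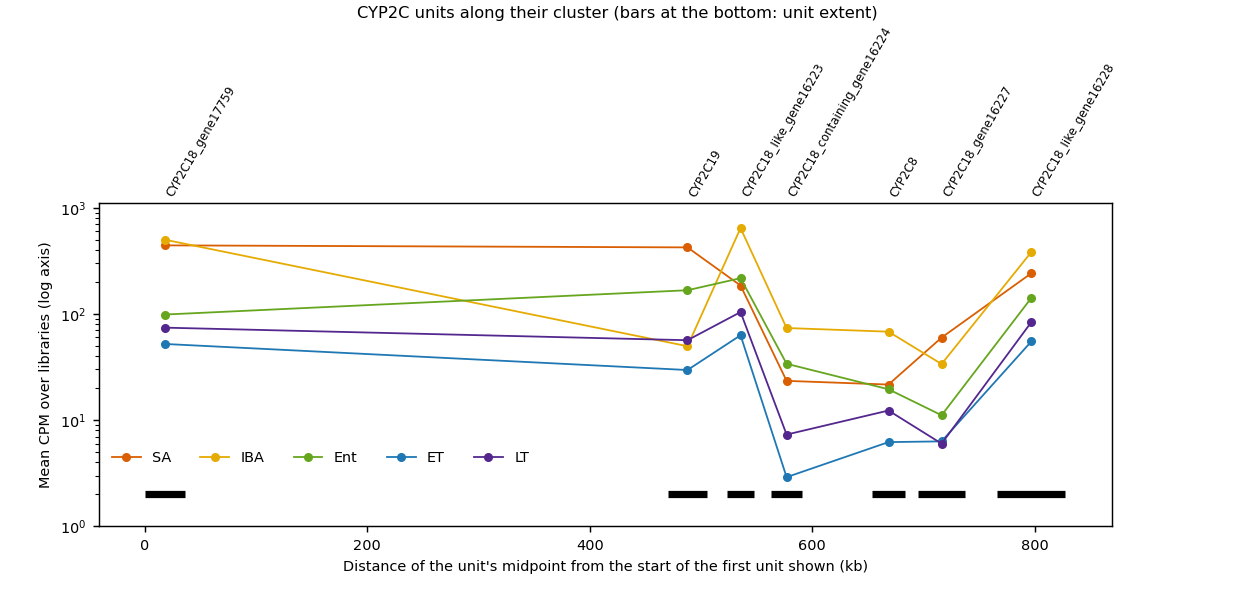
Mean CPM of the named single-gene CYP2C units (log axis) against the distance of each midpoint from the start of the first unit shown in kb, with a line for each state and bars at the bottom for the extent of the units. IBA is the highest state and ET the lowest for most of the units, whereas CYP2C19 and CYP2C18_gene16227 are highest in SA.

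Other P450s included units with calls against the majority between LT and IBA, a unit that followed the majority and units with no call. CYP4V2, an omega-hydroxylase of fatty acids, and CYP2U1, which hydroxylates long-chain fatty acids, were the CYP units that were lower in IBA than in LT. CYP4V2_like (Itri17:34817239-34841294) was at 523, 295 and 383 CPM in SA, 71.3, 113 and 65.5 in IBA, 202, 230 and 294 in Ent, 326, 268 and 228 in ET, and 264 and 189 in LT, so that its 3 IBA values were the lowest of all 14. It fell by 2.27 ± 0.27 from SA to IBA (adjusted p = 0.002), rose by 1.54 ± 0.26 from IBA to Ent (adjusted p = 0.0042) as the only member to do so, and was lower in IBA than in LT, with a log2 fold change of -1.45 ± 0.29 (adjusted p = 0.0012). All of these calls held with each library left out and with season as a covariate. From SA to winter CYP4V2_like fell with the majority, by 1.09 (adjusted p = 8.6e-04), and this call held with each library left out. CYP2U1_containing was at 115, 69.6 and 155 CPM in SA, 44.0, 64.6 and 48.2 in IBA, 59.1, 106 and 79.6 in Ent, 172, 126 and 125 in ET, and 167 and 119 in LT. Its log2 fold change from LT to IBA was -1.45 ± 0.32 (adjusted p = 0.0025), which held, while its fall of 1.12 ± 0.30 from SA to IBA (adjusted p = 0.047) was lost in 10 of the 14 fits that left out 1 library. CYP39A1_like, an oxysterol hydroxylase, was higher in IBA than in LT by 0.99 ± 0.21 (adjusted p = 0.0019). It also fell from SA to winter by 0.39 (adjusted p = 0.038), a call lost in 9 of the fits that left out 1 library. CYP3A43_like, the only single-gene unit of the CYP3A drug-metabolizing subfamily, CYP2J2_containing, the sterol demethylase CYP51A1_like and the orphan P450 CYP20A1_like had no call in any comparison. For CYP3A43_like the difference between LT and IBA was -0.35 ± 0.67, and for CYP20A1_like it was -0.46 ± 0.20.

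Of the 7 aldehyde dehydrogenases, 1 was higher and 3 were lower in IBA than in LT, beside 26.6% and 24.1% of all single-gene units. Aldh2, the mitochondrial enzyme that clears acetaldehyde, was at 124, 125 and 152 CPM in SA, 120, 145 and 97.1 in IBA, 126, 154 and 135 in Ent, 244, 188 and 200 in ET, and 263 and 276 in LT (Itri2:155078584-155116375). All 5 torpor libraries lay above all 9 others. Aldh2 rose by 0.61 ± 0.16 from Ent to ET (adjusted p = 0.014), was lower in IBA than in LT (-1.16 ± 0.18, adjusted p = 2.2e-04), and was the only member higher in winter than in SA (0.39 ± 0.13, adjusted p = 0.029). The LT to IBA call held with each library left out and with season as a covariate. The Ent to ET call was lost without Ent replicate 1 (0.54, adjusted p = 0.059) or ET replicate 1 (0.49, adjusted p = 0.057), and the winter call without SA replicate 1 (0.34, adjusted p = 0.11) or SA replicate 2 (0.35, adjusted p = 0.098). Aldh9a1, which acts on aminoaldehydes in carnitine and GABA synthesis, and Aldh6a1, of valine breakdown, were also lower in IBA than in LT, by log2 fold changes of -0.91 ± 0.30 (adjusted p = 0.024) and -0.53 ± 0.18 (adjusted p = 0.023). Each of these calls was lost without either LT library, without IBA replicate 1, and with season as a covariate (-0.48, adjusted p = 0.37, and -0.37, adjusted p = 0.26). The Aldh9a1 call was also lost without IBA replicate 3, and the Aldh6a1 call without IBA replicate 2. Aldh5a1, the succinate semialdehyde dehydrogenase, followed the majority. It was at 147, 122 and 127 CPM in SA, 111, 163 and 121 in IBA, 98.1, 92.5 and 68.0 in Ent, 60.5, 45.4 and 43.6 in ET, and 41.4 and 51.4 in LT, and was higher in IBA than in LT by 1.50 ± 0.23 (adjusted p = 2.3e-04). Aldh7a1 fell by 0.73 ± 0.20 from SA to winter (adjusted p = 0.012), not called without SA replicate 3 (-0.46, adjusted p = 0.12). Aldh1a1, which makes retinoic acid, and Aldh1b1 had no call. Aldh1a1 ranged from 32.8 to 232 CPM within ET.

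Of the 7 single-gene aldo-keto reductase units, 5 were higher in IBA than in LT and none was lower, beside 26.6% and 24.1% of all single-gene units. Each of the 5 calls was lost in at least 1 fit that left out 1 library. For AKR7A3_like it was lost without either LT library, and for Akr7a2 without LT replicate 1 (1.09, adjusted p = 0.056). AKR7A3_like, named for the aflatoxin aldehyde reductase, was at 42.2, 33.0 and 43.4 CPM in SA, 15.1, 24.0 and 22.0 in IBA, 17.8, 17.8 and 13.2 in Ent, 11.0, 9.43 and 8.62 in ET, and 11.5 and 10.9 in LT. Every SA library was above every winter library, and the unit fell by 1.52 ± 0.16 from SA to winter (adjusted p = 2.7e-05). It already fell by 0.95 ± 0.21 from SA to IBA (adjusted p = 0.02), but this call was lost without SA replicate 1 or 3 or IBA replicate 1 or 3, the values without them lying between -0.78 and -1.01. Akr7a2, 5.42 kb from AKR7A3_like on the same strand, fell by 1.30 ± 0.19 from SA to winter (adjusted p = 2.8e-04). AKR1C1_like and AKR1C1, named for hydroxysteroid dehydrogenases, were higher in IBA than in LT by 2.05 ± 0.51 (adjusted p = 0.0054) and 1.57 ± 0.48 (adjusted p = 0.016), and neither was called without LT replicate 1 (1.92, adjusted p = 0.054, and 1.50, adjusted p = 0.097) or with season as a covariate (1.27, adjusted p = 0.11, and 0.92, adjusted p = 0.23). The AKR1C1 call was also lost without LT replicate 3 (1.64, adjusted p = 0.07) or IBA replicate 1 (1.29, adjusted p = 0.054). Akr1a1, the aldehyde reductase, was higher in IBA than in LT by 0.79 ± 0.25 (adjusted p = 0.021). This call was lost without either LT library or without IBA replicate 2 (0.60, adjusted p = 0.085). In the same cluster as the AKR1C units, AKR1C3_like and Akr1e2 had no call, and Akr1e2, the highest of the AKR units per kb, lay between 311 and 496 CPM in all winter libraries.

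Among the Phase II enzymes, all 3 single-gene UGT2 units, which glucuronidate steroids, bile acids and drugs, were highest in IBA. UGT2B4_gene15926 (Itri14:16738360-16763867) was at 162, 118 and 195 CPM in SA, 295, 194 and 271 in IBA, 118, 69.2 and 148 in Ent, 32.0, 21.0 and 40.1 in ET, and 45.0 and 26.7 in LT. It was higher in IBA than in LT by 2.82 ± 0.40 (adjusted p = 1.3e-04) and fell by 1.85 ± 0.33 from Ent to ET (adjusted p = 0.0019), both held with each library left out. UGT2A1 was at 105, 108 and 117 CPM in IBA and at 48.7, 30.4 and 22.4 in Ent, a fall of 1.70 ± 0.26 (adjusted p = 0.0032). It had the smaller level in LT, 22.5 and 14.9, with a difference between LT and IBA of 2.56 ± 0.32 (adjusted p = 5.7e-05), and these calls held too. UGT2B15 kept 103, 108 and 204 CPM in Ent and fell by 1.68 ± 0.32 to 33.9, 37.3 and 58.7 in ET (adjusted p = 0.0028). Its difference between LT and IBA, 1.32 ± 0.37 (adjusted p = 0.0099), was lost without LT replicate 3 (1.04, adjusted p = 0.1) and with season as a covariate (0.81, adjusted p = 0.17).

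Glutathione transferases are grouped in classes. The alpha class, whose enzymes conjugate electrophiles and reduce lipid peroxides, gave the member with the smallest p in the 5-state test. GSTA3_like (Itri8:55966989-55979466) was at 289, 262 and 464 CPM in SA, 408, 418 and 448 in IBA, 235, 202 and 143 in Ent, 41.4, 50.3 and 48.2 in ET, and 36.0 and 32.7 in LT (adjusted p = 3.3e-06). IBA, Ent, ET and LT formed a descending series in which no library of a state overlapped the next. It fell by 1.14 ± 0.22 from IBA to Ent (adjusted p = 0.0062) and by 2.05 ± 0.23 from Ent to ET (adjusted p = 2.7e-04), and was higher in IBA than in LT by 3.63 ± 0.28 (adjusted p = 6.8e-06), each held with any library left out. From ET to LT its change of -0.44 ± 0.25 was not called (adjusted p = 0.69). GSTA2, 26.2 kb away on the opposite strand, fell by 1.63 ± 0.39 from Ent to ET (adjusted p = 0.0085), and its difference between LT and IBA of 1.90 ± 0.45 (adjusted p = 0.0039) was 1.13 with season as a covariate (adjusted p = 0.13). The merged alpha unit GSTA3_containing_gene2565:G37129:Gsta4, in the same cluster, went the other way, higher in winter than in SA by 0.76 ± 0.14 (adjusted p = 9.7e-04), with a difference of 0.21 ± 0.16 between Ent and ET (adjusted p = 0.36). The mu class units GSTM2_containing and GSTM4_like_gene20552, which lie 7.16 kb apart on the same strand, did not differ between torpor and the warm winter states by the test. They fell from SA to winter by 1.11 ± 0.26 (adjusted p = 0.005) and 1.02 ± 0.31 (adjusted p = 0.017), and the second call was lost without SA replicate 1 (-0.74, adjusted p = 0.12) or SA replicate 3 (-0.89, adjusted p = 0.083). Gsto1 (omega class) and Gstz1 (zeta class, of tyrosine breakdown) had no call. Gsto1 lay between 92.9 and 148 CPM in the winter libraries, and its difference between LT and IBA was -0.15 ± 0.23.

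SULT2A1_containing, named for the sulfotransferase of steroids and bile acids, was at 65.3, 49.0 and 54.1 CPM in SA, 28.4, 32.0 and 30.7 in IBA, 36.0, 26.9 and 16.3 in Ent, 7.66, 10.8 and 8.46 in ET, and 3.93 and 6.48 in LT. The SA libraries were above all winter libraries, and the torpor libraries were below all others. It fell by 2.01 ± 0.20 from SA to winter (adjusted p = 2.0e-05) and by 1.56 ± 0.28 from Ent to ET (adjusted p = 0.002), and was higher in IBA than in LT by 2.54 ± 0.34 (adjusted p = 1.0e-04), all held with each library left out. Sult2b1, the cholesterol sulfotransferase, also had all SA libraries above winter (43.9, 85.3 and 55.6 CPM, against at most 39.7) and fell by 1.50 ± 0.23 (adjusted p = 3.5e-04). SULT1B1_containing_gene14495 fell by 0.80 ± 0.24 from Ent to ET (adjusted p = 0.024) and was higher in IBA than in LT by 0.76 ± 0.27 (adjusted p = 0.033), each lost in 4 of the fits that left out 1 library.

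**Figure D5:**
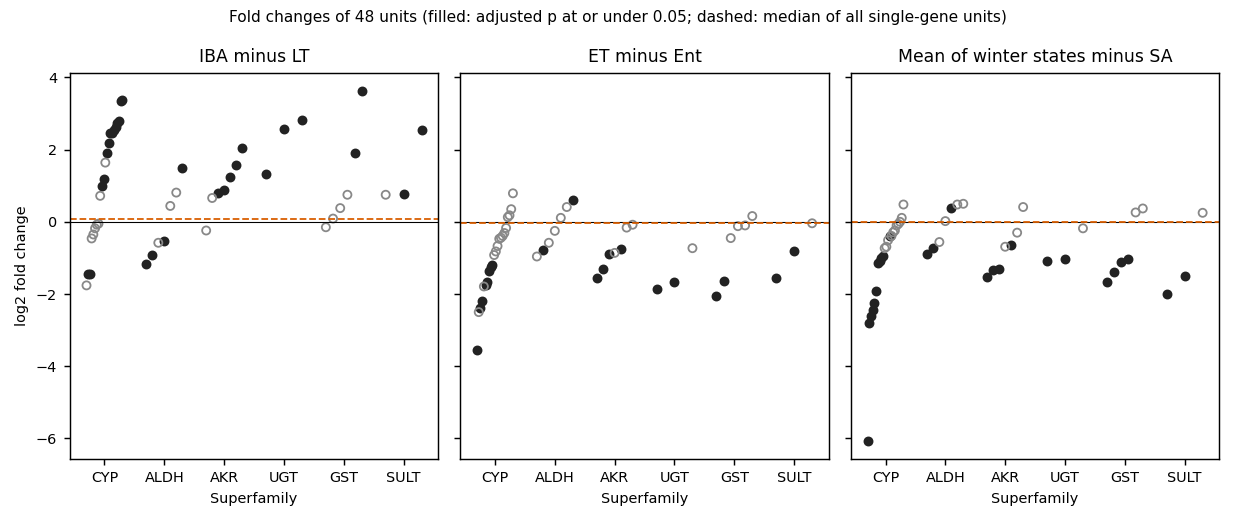
Log2 fold changes of the 48 single-gene members by superfamily for LT to IBA, Ent to ET and SA to the mean of the winter states, filled where the adjusted p was at or under 0.05, with a dashed line at the median of all 4705 single-gene units. Filled points lie above the line for IBA minus LT and below it in the other panels, apart from ALDH units in all 3 and 2 CYP units in the first.

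In the merged units, too, most calls were lower in torpor. Of the 30, 8 were called among the 5 states, beside 22.8% of all merged units, and 5 were called without LT replicate 1 or without LT replicate 3. From SA to IBA 1 rose and 2 fell (1.42% and 2.78%), and from IBA to Ent 1 rose and 2 fell (9.33% and 5.06%). Between Ent and ET 1 rose and 14 fell (15.1% and 12.2% of all merged units), 13 were higher and 3 lower in IBA than in LT (20.4% and 26.8%), and 14 were lower and 1 higher in winter than in SA (21.2% and 20.5%). The flavin monooxygenases, which oxidize nitrogen and sulfur, had only merged units. FMO1_gene3729:Fmo2, made of FMO genes alone, had the smallest p among the 5 states (adjusted p = 6.2e-06). It averaged 372 ± 84.6 CPM in SA, 311 ± 34.4 in IBA, 176 ± 41.5 in Ent, 74.8 ± 7.79 in ET and 63.6 ± 14.4 in LT, and fell by 1.24 ± 0.21 from Ent to ET (adjusted p = 0.0013). CYP2A7_containing:G12305, in the CYP2A and CYP2B cluster, fell by 2.60 from SA to winter (adjusted p = 6.5e-05), with state means of 731, 479, 150, 45.3 and 64.7 CPM in the order SA, IBA, Ent, ET and LT. GSTT1_like:LOC101963741:LOC101963449:LOC101963166 fell by 1.41 (adjusted p = 2.7e-05), CYP4A11_like_gene2141:CYP4A22_like, of fatty acid omega-hydroxylases, by 1.06 (adjusted p = 1.8e-04), and GSTA1_like:GSTA3_containing_gene2570 by 0.92 (adjusted p = 0.0032), the last with a log2 fold change of -0.57 without SA replicate 3 (adjusted p = 0.044). Some merged units had calls against the majority. Klf15:Aldh1l1:LOC101963026 fell by 1.93 from SA to IBA (adjusted p = 0.014), which was lost without IBA replicate 1 (adjusted p = 0.07) or IBA replicate 3 (adjusted p = 0.075), and had a log2 fold change of -2.41 from LT to IBA (adjusted p = 6.3e-04), with state means of 660, 173, 484, 893 and 918 CPM in the same order, and it holds the gene of a transcription factor besides Aldh1l1. G18926:CYP4F3_containing:CYP4F3 had -1.45 from LT to IBA (adjusted p = 0.002). Of the 4 merged CYP3A units only G40863:CYP3A4_gene24892 was called, with a fall of 2.08 from Ent to ET (adjusted p = 0.0051). These merged units were chosen by the same rule or, for the last 3, after their values were seen.

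Partner genes of the same pathways, from lists by function, gave mixed counts, to be read beside the 21.0% of all single-gene units that were higher and the 24.3% that were lower in winter. Of 30 Phase I partners, 14 had a unit of their own, of which 7 were lower in winter than in SA and none higher, and 4 were higher and 1 lower in IBA than in LT. Cbr4, a carbonyl reductase, was higher in IBA than in LT (2.64, adjusted p = 5.2e-05), Cyb5a, an electron donor to P450s, also (CYB5A_containing, 0.97, adjusted p = 0.0014), and ADH1B, an alcohol dehydrogenase, by 2.12 (adjusted p = 0.0037). The P450 reductase POR_like had a log2 fold change of -0.77 (adjusted p = 0.016), opposite to most CYP units. Of 12 measured genes for other conjugations and their cosubstrates, 6 were lower in winter and none higher. Ugp2, which makes UDP-glucose on the way to the UGT cosubstrate, was higher in IBA than in LT by 1.41 (adjusted p = 7.7e-04). Of 12 measured regulators, 3 were higher and 5 lower in winter. Nr1i2, the receptor PXR, averaged 369, 304, 312, 137 and 150 CPM in SA, IBA, Ent, ET and LT and was higher in IBA than in LT by 1.02 (adjusted p = 0.0013), as was Hnf4a by 1.08 (adjusted p = 6.3e-04). The receptor gene Ahr fell by 1.20 from SA to winter (adjusted p = 2.7e-04). Of 13 units of transporters, 5 were higher and 5 lower in winter, and Slc10a1, the bile acid uptake carrier, was higher in IBA than in LT by 2.30 (adjusted p = 1.6e-04). Nr1i3, the receptor CAR, had no single-gene unit.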

How the data were processed

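The deposited table holds raw read counts per unit. The authors trimmed adapters and poly(A) with cutadapt, aligned reads to HiC_Itri_2 with BWA, redefined gene bodies with fstitch, merged overlapping genes, removed the first 500 nt and counted uniquely aligned reads with featureCounts. Versions and the strand setting of the counting are not given in the sources used here. Genes that overlap on opposite strands, and near-identical copies, are therefore uncertain.

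Counts of all 6324 units in 14 libraries were fitted in edgeR 4.0.16 (TMM scaling, quasi-likelihood test, Benjamini-Hochberg adjustment over all units), after the procedure was tested on simulated data. Levels are CPM, counts scaled on TMM-adjusted library sizes, and errors of log2 fold changes are standard errors. P-values set a difference between states against the spread between single animals within states, estimated over all 5 states together. Depth was between 3713883 and 8884763 counts per library. The 1 library without a count column was not analysed here. DESeq2 1.42.0, other size factors, a mean count of at least 100, other thresholds, a replicate block, season, and leaving out each library were the alternatives.

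The members and lists were chosen with earlier results of these data known. Named units were the highest per kb of each family, up to 4 risers and 4 fallers per comparison, the 6 smallest p-values among the 5 states, units moving against their family and the 5 merged units with the smallest p. Other units, and some genes of the partner lists, were named after their values were seen. Some units and genes are counted but not reported here by name. No sequences are shown.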

Additional observations from a re-analysis of the deposited data

How the results depend on the processing

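Among the 5 states 17 single-gene members were called, 29 with DESeq2 (where 51.4% of all single-gene units were called), 34 at an adjusted p of 0.05, and between 13 and 18 with 1 library left out. At an adjusted p of 0.001 the calls were 0 for SA against IBA, 0 for IBA against Ent, 1 for Ent against ET, 10 for LT against IBA and 10 for SA against winter. Leaving out 1 library gave 1 to 7 calls for SA against IBA, 7 to 12 for IBA against Ent, 14 to 23 for Ent against ET, 0 for ET against LT, 17 to 31 for LT against IBA and 22 to 27 for SA against winter. With season as a covariate 19 were called from LT to IBA. Of the merged members 8 were called among the 5 states, 18 with DESeq2, 20 at 0.05, and 5 to 10 with 1 library left out. The causes were not tested. Of 606 values for the named units under the alternatives, 532 kept direction and call, 74 kept direction without the call and 0 reversed. The 28 pairs of unit and comparison behind them had been chosen for their calls, so reversals were unlikely. The values at an adjusted p of 0.001 come from the same fit and cannot reverse. Many of the fits that left out 1 library dropped one of neither state compared. Uniquely mapped reads as library size shifted the median of all units by 0.15 for IBA against Ent, 0.12 for Ent against ET, -0.18 for LT against IBA and 0.15 for SA against winter, and then 23 members were higher and 6 lower in IBA than in LT, and 24 lower and 3 higher in winter. Replicate numbers do not pair the animals: deviations of same-numbered libraries correlated between -0.263 and 0.234 over 26 pairs, and 3 of 14 libraries correlated best with their own number. With the replicate block the calls were 16 among the 5 states, 5, 10, 20, 0 and 29 in the pairs in the order above, and 27 from SA to winter. Season as a covariate gave no value for ET. Counts from 0 to 27 limit CYP1A1_like in winter.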
